A study of Solanum lycopersicum with 6 samples.

Results

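The anthocyanin and flavonoid pathway genes described here are 10 tomato genes taken from a table of read counts for 35821 genes. They are 6 enzyme genes (*CHS1*, *CHS2*, *F3H*, *F3'5'H*, *DFR* and *ANS*) and 4 regulator genes (*AN2*, *AN1*, *ATV* and *MYB12*). Members were chosen by their Solyc identifiers, ignoring the version suffix, which is a rule that reads no measured value, although the set was proposed with earlier results of these data known. All 10 were listed in the table. RNA-seq was performed on leaves of the cultivar M82 (WT) and of a Kyp mutant (*kyp*) in the same cultivar, with 3 biological replicates each. KRYPTONITE (KYP) is a histone methyltransferase, and the mutant is defective in depositing H3K9me2, a mark of silent chromatin. All plants were 4 weeks old and were grown without further treatment at 24 °C with 16 h of light, and RNA came from the fourth leaf. The mutant was a donated line, and the number of alleles was not stated.

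Flavonoids are made from phenylalanine. The general phenylpropanoid enzymes PAL, C4H and 4CL supply an activated acid, from which chalcone synthase (CHS) builds the flavonoid skeleton. Flavanone 3-hydroxylase (F3H) leads to dihydroflavonols, the branch point between flavonols and anthocyanins. Anthocyanins are the red to purple pigments of the shoot, and their late steps need DFR and ANS. In many plants these late genes are switched on by a complex of a MYB protein, a bHLH protein and a WD-repeat protein, whereas flavonol genes answer to MYB proteins of another subgroup. Tomato leaves contain flavonols, and they add anthocyanins mainly under strong light, cold or other stress.

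The libraries held between 7283885 and 11012421 counts. Levels are given as CPM, counts scaled to the library total, scaled by TMM, a correction for library composition. They compare a gene between libraries, and levels of different genes are not compared because transcript lengths were not used. The 2 genotypes were set against each other by the quasi-likelihood test of edgeR, p-values were adjusted by Benjamini and Hochberg over all 20154 tested genes, and a gene was called at an adjusted p under 0.05. Of the tested genes, 24.9% were called, 14.8% higher and 10.2% lower in *kyp*, so a call in this comparison is common. The leaf list of small Rubisco subunit and light-harvesting identifiers summed to between 9317 and 13694 CPM in WT and between 12926 and 15893 CPM in *kyp*. Of its 10 identifiers, 9 were listed, and 3 of the 8 tested were called higher in *kyp*. The flower and fruit list of 6 identifiers summed to at most 22.4 CPM in any library. Most of this was Solyc02g084630, at 19.9, 21.7 and 18.5 CPM in WT and 14.6, 17.4 and 18.6 CPM in *kyp*. The other 5 did not pass the filter on low counts. Whether *KYP* itself was reduced was not checked here. P-values set the difference between genotypes against the spread among these 6 libraries within each genotype, estimated with help from the other genes.

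Among the 10 genes, *AN2* rose and *MYB12* fell in *kyp*, and none of the 6 enzyme genes was called by edgeR. *AN1* and *ATV* did not pass the filter on low counts. The 2 calls among 8 tested members equal a share close to the 24.9% of all tested genes. At an unadjusted p under 0.05, 2 of the 6 enzyme genes passed, a level that all of the 24.9% called genes also pass. DESeq2 called 1 of the 6, against 4788 of all 20154 tested genes. The plot of CPM by library shows the 10 genes side by side.

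**Figure D1:**
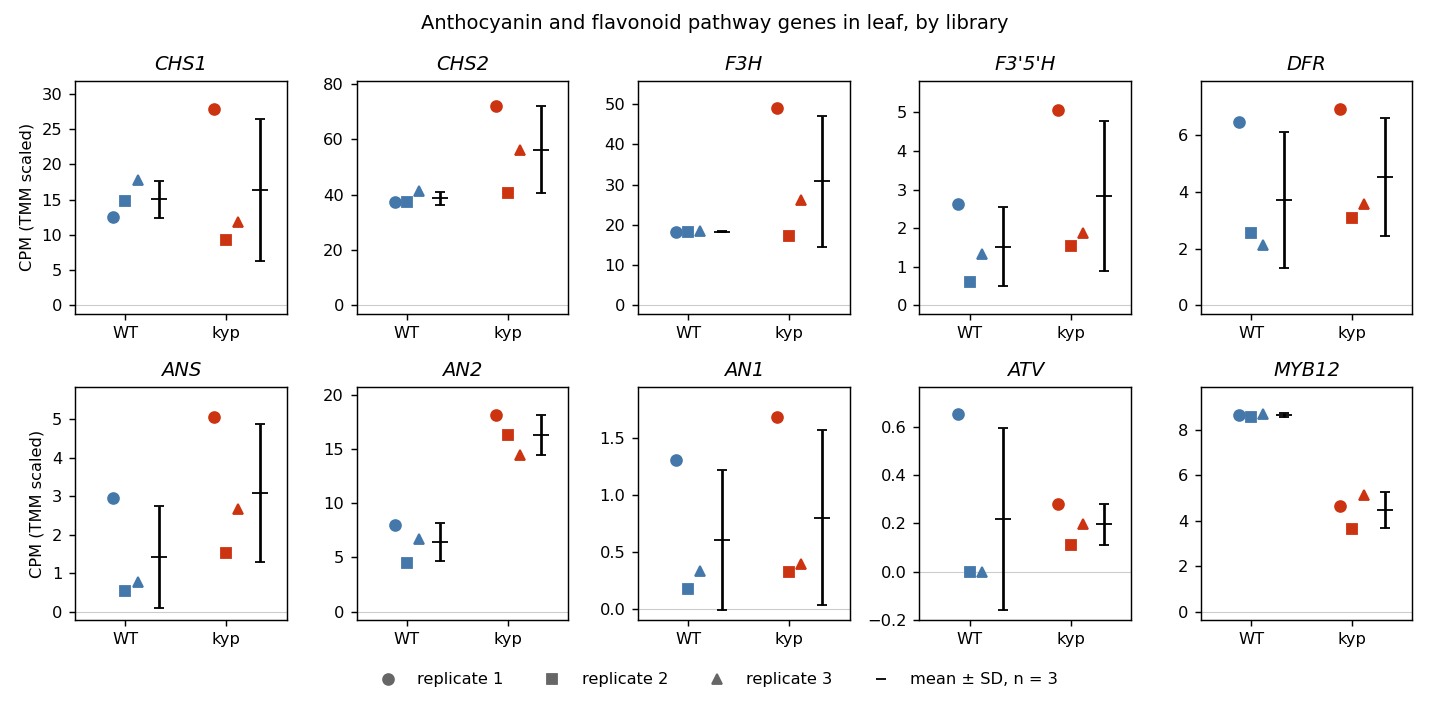
CPM (TMM scaled, linear axis, 1 panel per gene) in each of the 3 WT and 3 *kyp* libraries, with a point shape for each replicate number and the mean ± SD (n = 3) beside the points. *AN2* and *MYB12* are the panels where the genotypes do not overlap, and *kyp* replicate 1 is the highest library for all 6 enzyme genes, *AN2* and *AN1*.

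*CHS1* (Solyc09g091510) and *CHS2* (Solyc05g053550) encode chalcone synthase, the enzyme of the first committed step. *CHS1* was at 12.6, 14.8 and 17.7 CPM in WT replicates 1, 2 and 3, and at 27.8, 9.32 and 11.9 CPM in *kyp* replicates 1, 2 and 3. *kyp* replicate 1 lay above every WT library and the other two *kyp* libraries lay below every WT library. The log2 fold change, *kyp* over WT, was 0.10 (SE 0.36, 95% interval -0.74 to 0.93), with an adjusted p of 0.876 by edgeR. Without *kyp* replicate 1 it was -0.50, again not called.

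*CHS2* was at 37.3, 37.4 and 41.4 CPM in WT and at 71.9, 40.5 and 56.2 CPM in *kyp*. Only *kyp* replicate 2 fell within the WT range. For *CHS2* the log2 fold change was 0.54 (SE 0.19, 95% interval 0.11 to 0.96), and the adjusted p of 0.0672 by edgeR missed the threshold. DESeq2 gave an adjusted p of 0.0365, and without *kyp* replicate 2 edgeR gave 0.00388 with a log2 fold change of 0.72. Without *kyp* replicate 1 the log2 fold change was 0.32, with an adjusted p of 0.191 by edgeR. *CHS1* and *CHS2* are similar copies, and how reads shared between them were counted is not given in the sources used here, so the split between them is uncertain.

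*F3H* (Solyc02g083860) encodes the enzyme that makes dihydroflavonols. Its WT levels were close together, at 18.3, 18.1 and 18.5 CPM, whereas the *kyp* libraries gave 48.9, 17.3 and 26.2 CPM. *kyp* replicates 1 and 3 lay above WT and *kyp* replicate 2 lay below it. The SD was 0.198 CPM in WT and 16.3 CPM in *kyp* (n = 3 each). The log2 fold change was 0.74 (SE 0.32, 95% interval 0.01 to 1.47), with an adjusted p of 0.128 by edgeR. It was 1.02, with an adjusted p of 0.0122 by edgeR, when *kyp* replicate 2 was left out, and 0.25, with an adjusted p of 0.384, when *kyp* replicate 1 was left out.

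The 3 enzymes closest to the pigment were present at low levels. *F3'5'H* (Solyc11g066580) encodes the P450 that adds the hydroxyl groups of delphinidin-type anthocyanins. It had 24, 7 and 12 counts in WT, or 2.63, 0.616 and 1.34 CPM, and 36, 14 and 19 counts in *kyp*, or 5.06, 1.54 and 1.88 CPM. The genotypes overlapped, and replicate 1 was the highest of each. *F3'5'H* had a log2 fold change of 0.87 (SE 0.59, 95% interval -0.49 to 2.22), with an adjusted p of 0.324 by edgeR. It ranged from 0.20 without *kyp* replicate 1 to 1.51 without WT replicate 1, and was 0.46 without WT replicate 2.

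*DFR* (Solyc02g085020) encodes dihydroflavonol reductase, the entry to the anthocyanin branch. It was at 6.46, 2.55 and 2.12 CPM in WT and at 6.88, 3.07 and 3.56 CPM in *kyp*. Replicate 1 of each genotype stood at nearly the same level, above the remaining libraries. Between genotypes the log2 fold change was 0.26 (SE 0.47, 95% interval -0.80 to 1.33), with an adjusted p of 0.722 by edgeR. It ranged from -0.15 without *kyp* replicate 1 to 0.91 without WT replicate 1, and moved by over 1.5 times whichever single library was left out.

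*ANS* (Solyc08g080040) encodes anthocyanidin synthase, which forms the coloured anthocyanidin. It had 27, 6 and 7 counts in WT, or 2.95, 0.528 and 0.781 CPM, and 36, 14 and 27 counts in *kyp*, or 5.06, 1.54 and 2.67 CPM. WT replicate 1 lay above *kyp* replicates 2 and 3, and the other WT libraries lay below all of *kyp*. *ANS* had a log2 fold change of 1.11 (SE 0.64, 95% interval -0.35 to 2.58), with an adjusted p of 0.243 by edgeR. Without WT replicate 1 it was 2.21, with an adjusted p of 0.0429 by edgeR. It was 0.69 without WT replicate 2 and 0.61 without *kyp* replicate 1, with adjusted p of 0.517 and 0.591.

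For the 6 enzyme genes together, the log2 fold change was above 0 for 6 of 6, with a median of 0.64, against -0.01 over all tested genes. It was below 0 for *CHS1* with limma-voom, and for *CHS1* and *DFR* without *kyp* replicate 1. The intervals included 0 for 4 of them and reached beyond a doubling for 4, so these libraries do not show that the enzyme genes stayed at the WT level. The coefficient of variation between replicates ran from 1.08% to 93.8% in WT and from 28.0% to 68.8% in *kyp*.

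*AN2* (Solyc10g086250) encodes a MYB protein that activates anthocyanin genes. It had 73, 51 and 60 counts in WT, or 7.99, 4.49 and 6.70 CPM, and 129, 148 and 146 counts in *kyp*, or 18.1, 16.2 and 14.4 CPM. Every *kyp* library lay above every WT library, a separation in this direction that 21.9% of the tested genes shared. *AN2* was 2.56-fold higher in *kyp*, with a log2 fold change of 1.36 (SE 0.21, 95% interval 0.87 to 1.84) and an adjusted p of 0.00219 by edgeR. It was called under all 14 alternatives, with adjusted p from 1.33e-06 to 0.0124. The list of other regulators held 3 further identifiers that neighbour *AN2* in number, and reads shared among similar copies could be counted on either. *ANT1* (Solyc10g086260), another anthocyanin activator, had 0 counts in each WT library and 1 count in each *kyp* library. Solyc10g086270 had 7, 5 and 3 counts in WT and 9, 10 and 16 in *kyp*, without overlap in CPM. It did not pass the filter on low counts with all 6 libraries. Without WT replicate 1 and without *kyp* replicate 2 it passed only through *kyp*, the genotype where it is high. The edgeR calls of higher in those fits depend on that. Solyc10g086290 had 0 counts in each of the 6 libraries, where the floor of 3 counts equals 0.264 to 0.422 CPM.

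*MYB12* (Solyc01g079620) encodes the MYB activator of flavonol genes, whose loss makes tomato fruit pink because the peel lacks its yellow flavonoid. It had 79, 97 and 78 counts in WT, or 8.64, 8.54 and 8.70 CPM, and 33, 33 and 52 counts in *kyp*, or 4.64, 3.62 and 5.14 CPM. The WT libraries were nearly level, and all *kyp* libraries lay below them, a separation in this direction that 20.6% of the tested genes shared. *MYB12* was 1.93-fold lower in *kyp*, with a log2 fold change of -0.94 (SE 0.18, 95% interval -1.36 to -0.53) and an adjusted p of 0.00636 by edgeR. With replicate 1 of both genotypes left out, a setting chosen after the values were seen, the log2 fold change was -0.97 and the adjusted p by edgeR was 0.0627. Of 9 identifiers of glandular trichomes, hairs rich in flavonols, 8 were listed and 4 were tested. 1 of these, *MYC1* (Solyc08g005050), was called lower in *kyp*, with a log2 fold change of -0.26 and an adjusted p of 0.0442 by edgeR, while limma-voom called 1 gene of the list and DESeq2 0. Solyc08g005670 was at 2.84, 4.14 and 7.37 CPM in WT and at 2.81, 0.658 and 2.28 CPM in *kyp*, without overlap, with a log2 fold change of -1.33 (95% interval -2.47 to -0.20) and an adjusted p of 0.0851 by edgeR. *NDPS1* (Solyc08g005680) and Solyc06g059930 had log2 fold changes of -1.06 and -0.27, with adjusted p of 0.137 and 0.525 by edgeR. Among those not tested, Solyc04g012020, Solyc11g067270 and Solyc08g014230 had means of 0.227, 0.220 and 0.067 CPM in WT. In *kyp* their means were 0.439, 0.573 and 0.222 CPM, so these went the other way, at few counts, and Solyc08g014230 without overlap. The list summed to between 166 and 219 CPM in WT and between 147 and 179 CPM in *kyp*, and 1 listed identifier had no counts in any library. The part of these cells in the *MYB12* result was not tested, and fewer cells of a type cannot be told apart from less RNA per cell in whole leaves.

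*AN1* (Solyc09g065100) encodes the bHLH partner of the anthocyanin MYB proteins. It had 12, 2 and 3 counts in WT and 12, 3 and 4 counts in *kyp*, which is 1.31, 0.176 and 0.335 CPM and 1.69, 0.329 and 0.396 CPM. Replicate 1 of each genotype held most of the counts, and the genotypes overlapped. *ATV* (Solyc07g052490) encodes a small MYB repressor that competes for the bHLH partner. It had 6, 0 and 0 counts in WT and 2, 1 and 2 counts in *kyp*, at or under the floor of 3 counts in 5 of 6 libraries. Without the filter on low counts, *AN1* had a log2 fold change of 0.34 (SE 0.80) and *ATV* one of -0.11 (SE 1.22), with adjusted p of 0.795 and 0.966 by edgeR. *AN1* also passed the filter in 4 of the fits that left out a library and was not called in them.

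**Figure D2:**
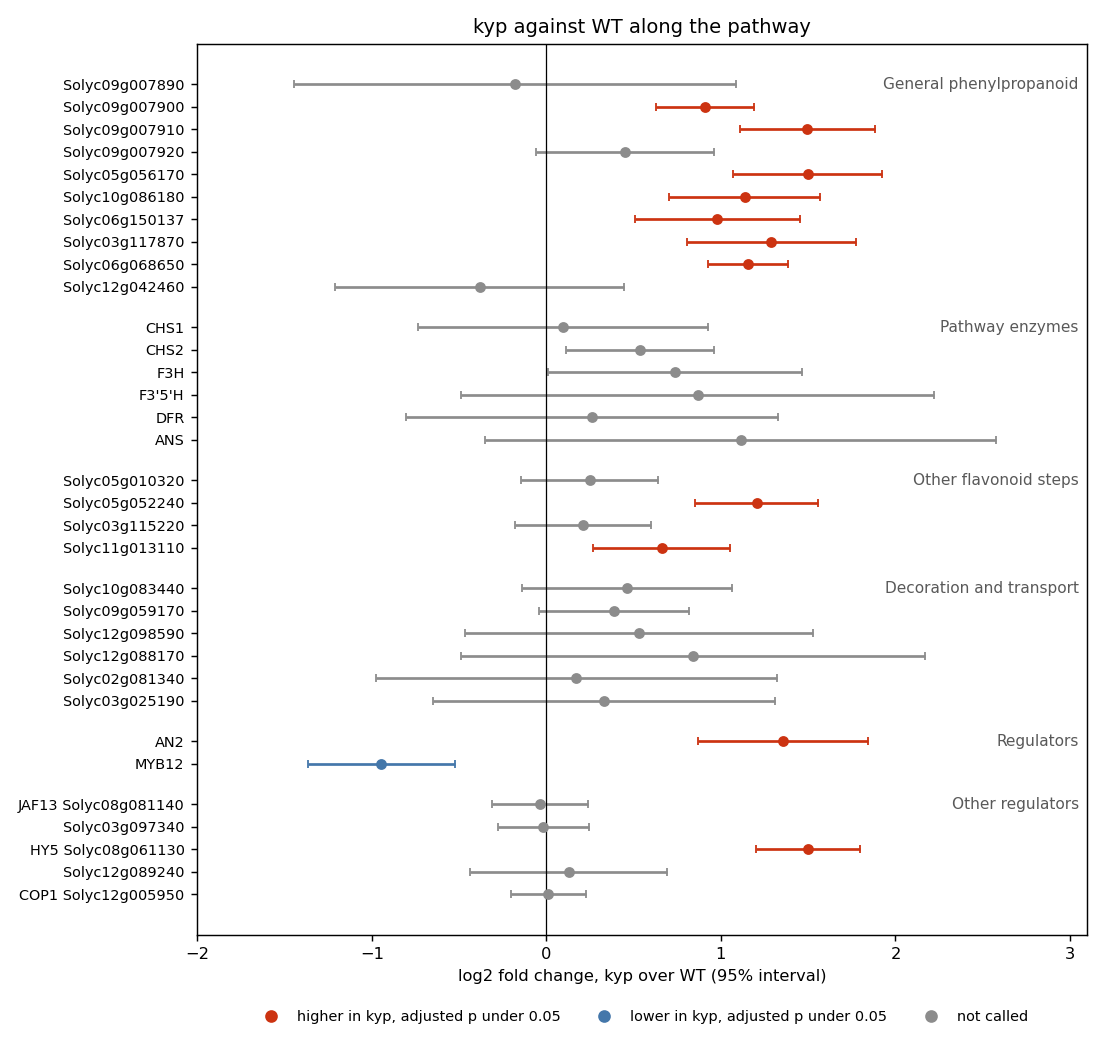
Log2 fold change of *kyp* over WT with its 95% interval for the tested genes along the pathway, grouped by role and coloured by the edgeR call. The general phenylpropanoid group lies mostly to the right of 0, with 8 of 11 tested genes called higher in *kyp*. The late enzymes have the widest intervals among the 6 enzyme genes. Solyc03g042560, with 1 count in WT, is off the scale and is not drawn.

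The steps around the 6 enzymes were examined with 32 further identifiers, placed on 4 lists from general knowledge of tomato genes. Of these, 31 were listed and 26 tested, and 11 were higher in *kyp* and 0 lower by edgeR, with 0 lower at an unadjusted p under 0.05 and 0 lower by DESeq2. Their median log2 fold change was 0.50. The 11 calls were 8 general phenylpropanoid identifiers, 2 of other flavonoid steps and 1 regulator. The share of higher calls over all tested genes was 14.8%, and these lists too were made with earlier results known.

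The general phenylpropanoid list held 13 identifiers for PAL, C4H and 4CL, which also feed lignin and other phenolics. Of its 11 tested genes 8 were called higher in *kyp* by edgeR, with a median log2 fold change of 1.14 over the 11. Solyc09g007910 was at 131, 97.6 and 107 CPM in WT and at 358, 242 and 344 CPM in *kyp*, 2.82-fold higher (adjusted p by edgeR 0.000435). Solyc05g056170 was likewise 2.82-fold higher, at 83.2, 83.1 and 57.4 CPM in WT and 241, 163 and 227 CPM in *kyp*. All *kyp* libraries lay above all WT libraries for both. Solyc03g117870, Solyc06g068650, Solyc10g086180, Solyc06g150137 and Solyc09g007900 were 2.44-, 2.23-, 2.199-, 1.97- and 1.88-fold higher, with adjusted p by edgeR of at most 0.00942. The other 3 tested genes, Solyc09g007890, Solyc09g007920 and Solyc12g042460, had log2 fold changes of -0.18, 0.45 and -0.38 and were not called.

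Solyc03g042560 of the same list was almost without reads in WT, with 1, 0 and 0 counts, and had 217, 173 and 378 counts in *kyp*. These equal 30.5, 19.0 and 37.4 CPM in *kyp*. The 768 counts in *kyp* against 1 in WT give a ratio of 859, with an exact 95% counting interval of 154 to 33967 that leaves out the spread between plants. The adjusted p was 2.49e-05 by edgeR. With so few counts in WT, the gene passed the filter only through *kyp*, and its place among the 8 and the 11 higher genes depends on that. It was also called without the filter on low counts, and was not tested when at least 10 counts were asked of every library.

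Of the other flavonoid steps, Solyc05g052240 was at 11.5, 11.9 and 13.3 CPM in WT and at 31.1, 22.5 and 31.0 CPM in *kyp*, 2.31-fold higher (adjusted p by edgeR 0.000790). Solyc11g013110 was at 70.8, 56.3 and 72.4 CPM in WT and at 134, 88.3 and 93.2 CPM in *kyp*, 1.58-fold higher (adjusted p by edgeR 0.0233), and the call was lost without WT replicate 2, without *kyp* replicate 1, and without WT replicate 1. All *kyp* libraries lay above WT for both genes. The other 2 tested genes of this list were not called.

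The decoration and transport list held 6 identifiers for the enzymes and carriers that attach sugars and acyl groups to anthocyanins and bring them to the vacuole. None of its 6 tested genes was called by edgeR, none had an unadjusted p under 0.05, and DESeq2 called 0. With the replicate number as a block, edgeR called Solyc12g088170 higher. Their median log2 fold change was 0.43. Solyc09g059170 had the smallest adjusted p, 0.170 by edgeR, with a log2 fold change of 0.39 (95% interval -0.04 to 0.82).

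Among the other regulators, *HY5* (Solyc08g061130), a bZIP factor that promotes light responses and flavonoid genes, was at 11.5, 10.04 and 8.82 CPM in WT and at 29.8, 29.2 and 26.8 CPM in *kyp*. The genotypes were far apart relative to the spread in each. *HY5* was 2.82-fold higher, with a log2 fold change of 1.498 (SE 0.13) and an adjusted p of 0.000121 by edgeR. *COP1* (Solyc12g005950), the ubiquitin ligase that targets HY5 in the dark, had a log2 fold change of 0.01 (95% interval -0.20 to 0.23), and *JAF13* (Solyc08g081140), a second bHLH partner, had one of -0.04 (95% interval -0.31 to 0.24). These intervals leave out a change of the size seen for *HY5*. The other 2 tested regulators, Solyc03g097340 and Solyc12g089240, had log2 fold changes of -0.02 and 0.13 and were not called.

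**Figure D3:**
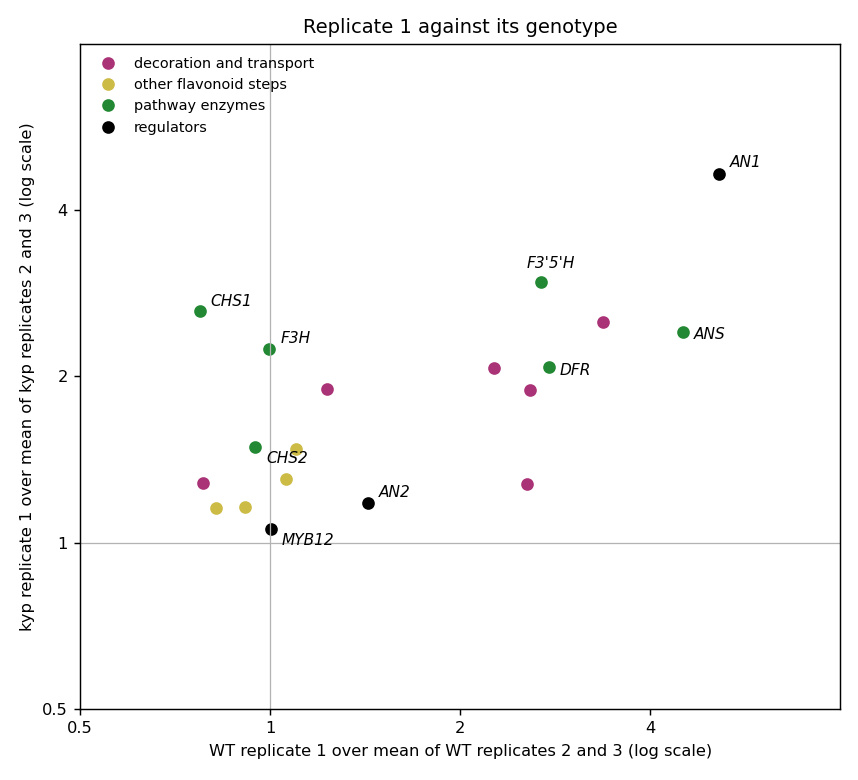
CPM of replicate 1 divided by the mean of replicates 2 and 3, in WT (x axis) and in *kyp* (y axis), on log scales, for tested enzyme, flavonoid and decoration genes and for *AN1*, *AN2* and *MYB12*. *F3'5'H*, *DFR*, *ANS* and *AN1* lie to the upper right, above 2 on both axes, as do the decoration genes Solyc12g098590 and Solyc12g088170. The position of *AN1* rests on few counts. *CHS1*, *CHS2* and *F3H* are raised only on the *kyp* axis.

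The late genes varied between replicates in a way that the early genes did not share in WT. For *F3'5'H*, *DFR*, *ANS* and *AN1*, WT replicate 1 was 2.69-, 2.76-, 4.51- and 5.14-fold above the mean of WT replicates 2 and 3. For the same genes *kyp* replicate 1 was 2.96-, 2.08-, 2.40- and 4.65-fold above the mean of *kyp* replicates 2 and 3. The largest ratios rest on few counts, as *AN1* had 12, 2 and 3 in WT and 12, 3 and 4 in *kyp*. *ANS* had 27, 6 and 7 in WT. For *CHS1*, *CHS2* and *F3H* the WT ratio was 0.773, 0.947 and 0.997, and the *kyp* ratio was 2.63, 1.49 and 2.25. The 6 decoration and transport genes had median ratios of 2.40 in WT and 1.896 in *kyp*, with ranges of 0.781 to 3.36 and 1.28 to 2.51. Among the 8 tested members, replicate 1 was the highest library of both genotypes for 4, namely *F3'5'H*, *DFR*, *ANS* and *AN2*. For *AN2* the ratios were only 1.43 in WT and 1.18 in *kyp*, and *AN1* was not tested. These 4 of 8, and 4 of 6 decoration and transport genes, compare with 11.9% of all tested genes. This comparison was chosen after the values were seen and has no test.

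The mean standardized log2 CPM of the 6 enzyme genes was compared with every tested gene outside the lists, over the 6 libraries. The closest were Solyc04g028580.3 and Solyc04g082380.4, with Pearson's r of 0.997 and 0.988. With 6 libraries and 20107 genes compared, values this high are a description only. Solyc04g082380.4 was at 15.1, 12.9 and 14.4 CPM in WT and at 21.4, 13.5 and 16.3 CPM in *kyp*, and neither gene was called between genotypes.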

How the data were processed

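The authors deposited raw read counts for each gene in each library. The submitters' processing notes name Trimmomatic 0.38, HISAT2 2.2.1, SAMtools 1.9, featureCounts and DESeq2. The paper's methods instead describe mapping to the M82 genome with Bowtie2 and removal of PCR duplicates and of alignments with low mapping quality. Which of these made the table, its strand setting and annotation release are not given in the sources used here. Replicates were not pooled, and 0 sample columns were left unused.

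Counts were analysed in R 4.3.3 with edgeR 4.0.16 (filterByExpr with a minimum count of 10 and a minimum total of 15, TMM, glmQLFit, glmQLFTest), with genotype as the only factor and 6 libraries in the fit. Standard errors were taken from the log2 fold change and its F statistic. CPM used library totals over all listed genes times the TMM factors. The test was checked on simulated counts with the same variation beyond sampling noise for every gene, which leaves out the uneven spread seen among the members. Chi-square values of 4.56 to 11.7 per degree of freedom between libraries of a genotype exceed sampling noise, so no library was counted as a repeat. Alternatives were DESeq2 1.42.0, limma-voom (limma 3.58.1), other normalizations and filters, a replicate block and leaving out each replicate.

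The RefSeq table of assembly SLM_r2.1 matched 9 of 10 member names, each on the chromosome numbered in the Solyc identifier, and 0 identifiers. Sequences were not used here. The genes named were the 10 members, the called genes of the other lists and, for a list without calls, the gene with the smallest p. Other genes that were not called, such as *COP1*, *JAF13* and *ANT1*, were named after their values were seen. The members and lists were chosen with earlier results of these data known.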

Additional observations from a re-analysis of the deposited data

How the results depend on the processing

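*AN2* was called under all 14 alternatives. Of the 11 other pathway genes called higher, 8 were called under all 14. Solyc11g013110 was lost in 4 settings, Solyc06g150137 without replicate 1 of both genotypes and Solyc03g042560 with at least 10 counts in every library. Counts of higher calls on these lists ranged from 9 to 14, and no setting called a gene lower. Under the replicate block 1 gene was gained (Solyc12g088170), and without WT replicate 1 also 1 (Solyc10g086270). Without *kyp* replicate 2, 3 were gained, among them Solyc10g086270, which passed the filter only through *kyp* in both fits. The count of members higher in *kyp* rose from 1 to 2 with DESeq2 and without a filter (*CHS2* added) and with the replicate block (*ANS* added), and ranged from 1 to 3 when each replicate was left out. The count of members lower in *kyp* stayed at 1 when each replicate was left out, and fell to 0 without replicate 1 of both genotypes, which left 2 libraries a genotype. The log2 fold change of *CHS1*, not called in any setting, turned negative with limma-voom (-0.092), with the replicate block (-0.019), without WT replicate 1 (-0.015), without *kyp* replicate 1 (-0.50) and without replicate 1 of both genotypes (-0.61), and that of *DFR* without *kyp* replicate 1 (-0.15). When each replicate was left out, it ranged from -0.50 to 0.37 for *CHS1* and from -0.15 to 0.91 for *DFR*. Over all genes, 2982 were higher and 2046 lower, from 2265 to 3228 and from 1211 to 2203 when each replicate was left out, and 1809 and 769 without replicate 1 of both genotypes. The causes were not tested.

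Same-numbered libraries deviated from their group means with correlations of 0.20, 0.07 and -0.07 across genes for numbers 1, 2 and 3. The labels give only a replicate number, and whether same-numbered libraries share anything more was not tested. *kyp* replicate 2 correlated best with WT replicate 3 (0.20). The replicate block gave 2987 higher and 1880 lower genes, and for *ANS* an adjusted p of 0.0341 by edgeR.

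Low counts kept *AN1* and *ATV* out of the main comparison, and neither was called in the fits that held them. The SE of *F3'5'H*, *DFR* and *ANS* was 0.59, 0.47 and 0.64, and 0.30, 0.24 and 0.33 with the replicate block. With 3 libraries a genotype, leaving out a single library changed the calls on *CHS2*, *F3H* and *ANS*. With all 6 libraries, the call on *CHS2* also changed with DESeq2 and without a filter, and that on *ANS* with the replicate block. The interval from the summed counts of Solyc03g042560 covers counting error only.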
